A study of Mus musculus with 6 samples.

Results

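The 53 genes described here encode collagens, small leucine-rich proteoglycans, elastic fibre proteins, adhesive and matricellular proteins, and the proteins that fold, process and crosslink collagen. They were taken by symbol from a list of fibroblast and interstitial matrix genes. The rule for the list names no measured value, but the list was drawn up with earlier results of these data known, and 53 of 53 were matched among the 33460 genes of the files. RNA-seq was available for 6 brain samples of *Pdgfrb-eGFP/NG2-DsRed* mice, all taken on postnatal day 6. The 3 mural cell samples are FACS sorted cells that carried both reporters, and the 3 microvascular samples are vessel pieces freed with collagenase and captured with anti-CD31 beads. The animals of both groups carried both transgenes, line Tg(Pdgfrb-eGFP)JN169Gsat/Mmucd for the green reporter, and no further allele or treatment is given. Each brain was divided along the midline, with a side used for FACS and the opposite side for the fragments, and the labels do not say which samples share a brain. The sort selects by joint activity of the *Pdgfrb* and NG2 (*Cspg4*) reporters. The paper reports that other brain cells carried a single reporter, without overlap between them. It concludes that double-positive cells are likely mural cells only. Markers of other cell types in the sorted samples are given below. The fragments contain mural cells beside endothelial cells. A ratio between the groups therefore compares sorted cells with a mixture that includes them, and in such bulk samples fewer cells of a type and less RNA per cell cannot be told apart.

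Interstitial matrix is the fibrous and hydrated network between cells. Fibrillar collagens assemble into striated fibrils, the small leucine-rich proteoglycans bind the fibrils and set their spacing and width, and elastin is laid down on fibrillin microfibrils with the help of fibulins. Lysyl oxidases crosslink collagen and elastin, and matricellular proteins bind both matrix and cell surface receptors without being structural themselves. In the brain such matrix is sparse and lies mostly in the leptomeninges, in the walls of larger vessels and around them, where fibroblasts, smooth muscle cells and other mural cells are known sources.

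Most of the matrix genes were higher in the sorted mural cells. Levels are given as FPKM (mapped fragments scaled to exon length and to library size) and fold enrichment is the ratio of mean FPKM of mural cells to fragments. A gene was called when limma on log2(FPKM + 1) gave a Benjamini-Hochberg adjusted p under 0.05 over the 14801 genes tested and the ratio was above 2 or under 0.5. Of the 53 genes 50 passed the filter (FPKM of 1 or more in 3 or more samples), 35 were called higher in mural cells, 2 were called lower and 13 were not called. The background was 6.43% higher and 10.1% lower among all genes tested, or 952 and 1493 genes. Leaving out fragment replicate 1, 2 or 3 took the lower genes to 654, 702 and 607 and the higher genes to 741, 739 and 691. The genes tested then fell to 13916, 13931 and 13966. Without a fragment library, a gene at 1 FPKM or more only in fragments cannot reach the 3 samples that the filter asks for. The part of this filter effect in the change was not tested. The median log2 fold change of the 50 genes was 1.89, against -0.12 for all genes tested, and the median ratio was 4.30 against 0.943. Every mural cell library lay above every fragment library for 39 of the 53 genes and below for 2, where the shares among all genes tested were 16.5% and 24.5%. In the remaining 12 genes the groups overlapped. The 53 include 3 genes that were not tested, *Omd* among the 39 and *Efemp1* and *Pcolce2* among the 12, while the shares cover tested genes only. Quantile normalization moved the median log2 fold change of all genes by 0.13 and turned the split over all genes to 1212 higher and 1080 lower, or 52.9% of calls higher in place of 38.9%, while 34 of the 35 matrix genes and both lower ones kept their call, *Col18a1* lost it and *Prelp* gained it. *Mfap5* alone passed the filter through the mural cell libraries only, and the median log2 fold change without it was 1.85.

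The depth behind these values differed between the groups. From genes with a single transcript, where 97.8 to 98.8% of low values were whole multiples of a fragment's worth (tolerance 0.1), approximately 1.04 to 2.37 M fragments on protein-coding genes were estimated for mural cell libraries and 5.43 to 5.95 M for the microvascular libraries. For a transcript of 3 kb, 3 sequenced fragments amount to 0.604 to 1.44 FPKM in mural cells and 0.230 to 0.253 FPKM in the microvascular libraries, so values near or below 1 FPKM in mural cells, as for *Omd*, *Efemp1* and *Pcolce2*, rest on few fragments, and these 3 genes were not tested. Libraries of a group correlated across genes with Pearson's r (log2) of 0.891 to 0.910 in mural cells and 0.959 to 0.963 in fragments.

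The promoter sequences below are those of the called genes with the highest ratios and of the 2 genes called lower, as far as RefSeq windows were at hand, so that the strongest contrasts can be read beside their upstream sequence. They were chosen after the values were seen. The RefSeq table of GRCm38.p6 covers 250 bases before to 50 bases after a transcription start and held 45 windows for 36 of the 53 genes. No window was used for *Col1a1*, *Col5a2*, *Col12a1*, *Col14a1*, *Dcn*, *Lum*, *Eln*, *Fbn2*, *Mfap4*, *Mfap5*, *Fn1*, *Thbs1*, *Mgp*, *Lox*, *Loxl1*, *Loxl2* and *Loxl3*. Capitals mark the letters TATAAA (the TATA box), CCAAT (the CCAAT box) and GGGCGG (the GC box) on either strand, and each motif was searched on its own, so that a base could count for more than a single motif. *Aspn* (chr13:49544193-49544492, plus strand) and *Col1a2* (chr6:4505368-4505667, plus strand) had ratios of 12.8 and 12.1.
Aspn: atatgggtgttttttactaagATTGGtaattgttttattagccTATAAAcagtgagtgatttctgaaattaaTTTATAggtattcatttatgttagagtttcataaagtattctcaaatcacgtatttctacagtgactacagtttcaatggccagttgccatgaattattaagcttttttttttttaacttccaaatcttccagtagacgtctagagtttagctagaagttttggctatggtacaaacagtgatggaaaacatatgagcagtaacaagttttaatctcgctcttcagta
Col1a2: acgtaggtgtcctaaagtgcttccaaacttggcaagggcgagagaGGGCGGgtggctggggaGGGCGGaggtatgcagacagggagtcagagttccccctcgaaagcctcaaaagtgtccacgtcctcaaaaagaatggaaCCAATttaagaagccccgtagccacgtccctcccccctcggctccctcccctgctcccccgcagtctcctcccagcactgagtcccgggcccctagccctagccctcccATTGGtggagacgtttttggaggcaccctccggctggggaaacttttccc
*Fbln2* (chr6:91212514-91212813, plus strand) and *Fbln5* (chr12:101819070-101819369, minus strand, the first of 2 windows) were the genes called lower.
Fbln2: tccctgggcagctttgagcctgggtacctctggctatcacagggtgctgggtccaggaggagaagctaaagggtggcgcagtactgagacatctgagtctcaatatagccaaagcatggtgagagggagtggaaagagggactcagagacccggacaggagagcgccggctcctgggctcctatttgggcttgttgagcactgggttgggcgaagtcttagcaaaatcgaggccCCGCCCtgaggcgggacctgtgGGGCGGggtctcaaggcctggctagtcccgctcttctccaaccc
Fbln5: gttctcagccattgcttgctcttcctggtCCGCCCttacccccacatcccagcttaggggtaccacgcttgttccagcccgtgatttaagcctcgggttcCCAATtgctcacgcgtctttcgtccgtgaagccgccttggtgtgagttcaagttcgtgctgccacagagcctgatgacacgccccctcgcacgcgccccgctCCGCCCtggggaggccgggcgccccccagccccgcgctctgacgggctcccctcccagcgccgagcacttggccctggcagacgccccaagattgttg
The *Aspn* window held 2 matches of the TATA letters and 1 of the CCAAT letters, and 31% of its bases were G or C. The *Col1a2* window held 2 CCAAT and 2 GC box matches at 61% G or C. In the *Fbln2* window there were 2 GC box matches at 60.3%, and in the *Fbln5* window 1 CCAAT and 2 GC box matches at 65.7%. The distance of a match from the start was not used, so a match need not be a working box. Over the 45 windows of matrix genes the TATA letters were present in 17.8%, the CCAAT letters in 28.9% and the GC box letters in 55.6%, against 13.6%, 37.4% and 35.7% of all 32851 windows of the table. A match is a match of letters and was not tied to any measurement of binding here.

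**Figure D1:**
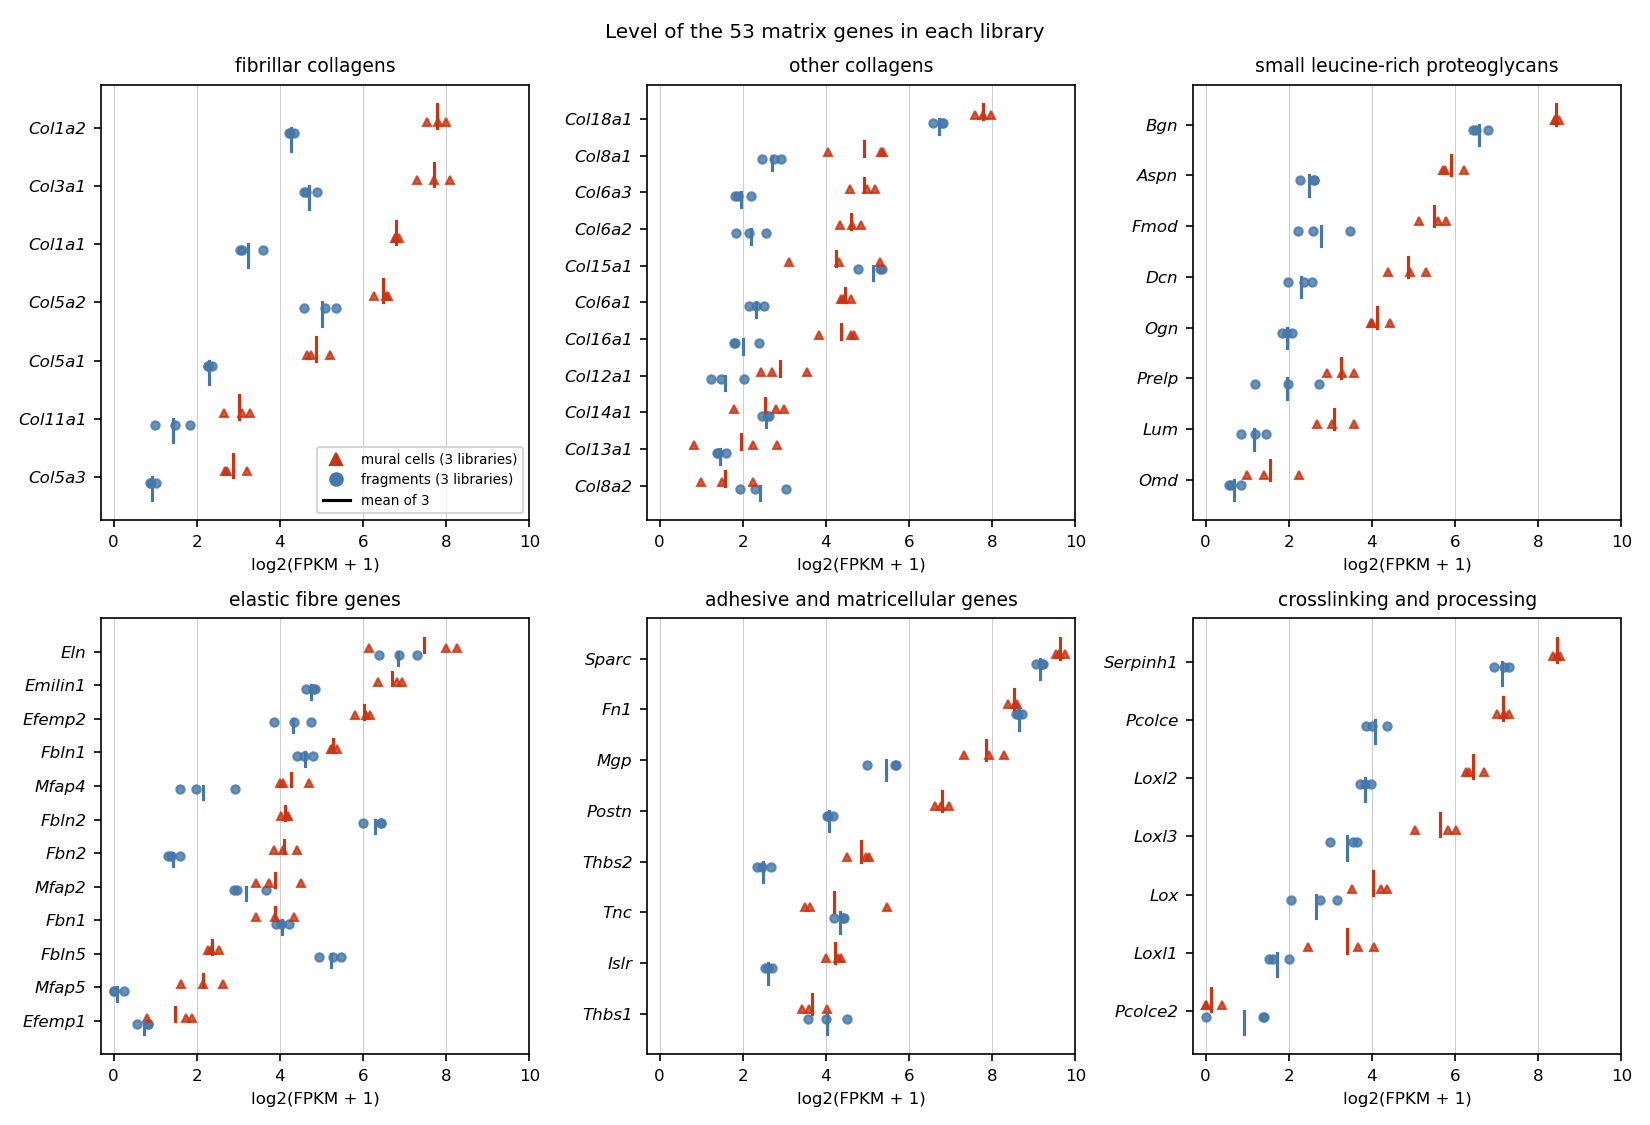
Level of each of the 53 matrix genes in each library as log2(FPKM + 1), in 6 panels by class. Triangles are the 3 mural cell libraries, circles the 3 fragment libraries and vertical lines the mean of 3. In 39 genes all triangles lie to the right of all circles, and *Fbln2* and *Fbln5* are the only genes in which all lie to the left. Among all genes tested these shares were 16.5% and 24.5%.

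The fibrillar collagens were higher in mural cells without exception. All 7 of 7 genes were called (background 6.43%), with a median ratio of 7.26. Every mural cell library lay above every fragment library for all 7, as for 16.5% of all genes tested. *Col1a1* (chr11:94797538-94814356, NCBIM37) and *Col1a2* (chr6:4454814-4491543), the chains of type I collagen, had the largest ratios of this class. *Col1a1* was at 107, 109.7 and 115 FPKM in mural cell libraries 1, 2 and 3 and at 7.19, 7.52 and 11.1 FPKM in fragment libraries 1, 2 and 3. *Col1a2* was at 184, 256 and 222 FPKM in mural cells and at 18.0, 19.2 and 17.7 FPKM in fragments. Means were 111 ± 3.87 (SD, n = 3) against 8.61 ± 2.18 FPKM for *Col1a1* and 221 ± 36.2 against 18.3 ± 0.770 FPKM for *Col1a2*, or 12.9-fold and 12.1-fold. The log2 fold changes were 3.56 (SE 0.18, limma adjusted p = 8.1e-05) and 3.51 (SE 0.14, adjusted p = 5.1e-05). *Col3a1*, the chain of type III collagen that forms fibrils together with type I, was at 158, 274 and 207 FPKM in mural cells and at 23.7, 28.5 and 23.0 FPKM in fragments (ratio 8.49, adjusted p = 1.5e-04).

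Type V and XI collagen chains start and limit fibril growth, and in mural cells their mean levels were below those of types I and III. *Col5a2* was at 93.4, 96.0 and 76.3 FPKM in mural cells and at 32.9, 39.7 and 22.8 FPKM in fragments, the smallest ratio of the class at 2.79 (limma adjusted p = 0.0027). *Col5a3* was at 8.18, 5.45 and 5.57 FPKM in mural cells and at 0.852, 0.837 and 1.02 FPKM in fragments, a ratio of 7.09. *Col5a1* had a ratio of 7.26. *Col11a1* was at 7.57, 5.33 and 8.63 FPKM in mural cells and at 1.79, 0.992 and 2.55 FPKM in fragments (ratio 4.04, adjusted p = 0.012), and without fragment replicate 2 its adjusted p was 0.051. *Col5a3* and *Col11a1* were thus under 10 FPKM in every library while the groups stayed apart.

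Of the 11 other collagens 7 were called higher (63.6%, background 6.43%), 4 were not called, and the median ratio was 3.31. The 3 chains of type VI collagen, which forms beaded filaments around cells, were called. *Col6a3* was at 23.0, 35.0 and 30.9 FPKM in mural cells and at 2.70, 2.50 and 3.60 FPKM in fragments (ratio 10.1, log2 fold change 2.95, SE 0.23, limma adjusted p = 2.4e-04). *Col6a2* was at 19.4, 27.8 and 23.7 FPKM in mural cells and at 2.57, 4.94 and 3.47 FPKM in fragments, a ratio of 6.46. *Col6a1* was at 23.3, 20.1 and 19.5 FPKM in mural cells and at 3.98, 3.45 and 4.69 FPKM in fragments, a ratio of 5.19. The 3 chains thus lay close together in the sorted cells, between 19.4 and 35.0 FPKM.

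*Col16a1*, a collagen of the group that attaches to fibrils, was at 13.2, 23.4 and 24.5 FPKM in mural cells and at 2.52, 4.26 and 2.43 FPKM in fragments (ratio 6.63). *Col12a1*, of the same group, was at 10.7, 4.41 and 5.50 FPKM in mural cells and at 1.79, 3.07 and 1.36 FPKM in fragments. Its ratio of 3.31 came with an adjusted p of 0.045 (limma), and leaving out any library other than mural replicate 2 took the adjusted p to between 0.063 and 0.17. *Col8a1*, a short-chain collagen of vessel walls, had a ratio of 5.65. *Col18a1*, the collagen whose C-terminal piece is endostatin and which sits at basement membranes, had the highest level among these collagens, at 190.5, 252 and 217 FPKM in mural cells and 110.5, 111 and 94.0 FPKM in fragments. Its ratio of 2.09 (adjusted p = 0.0019) was the smallest of any matrix gene called higher, and it was 1.94 without mural replicate 2 and 1.98 without fragment replicate 3. *Col18a1* overlaps *Slc19a1* on the opposite strand, and whether the counting used strand is not given in the sources used here. The genes not called were *Col8a2* (ratio 0.475, adjusted p = 0.22), *Col13a1* (1.99, 0.54), *Col14a1* (1.04, 0.96) and *Col15a1* (0.620, 0.25), and the groups overlapped in all 4.

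**Figure D2:**
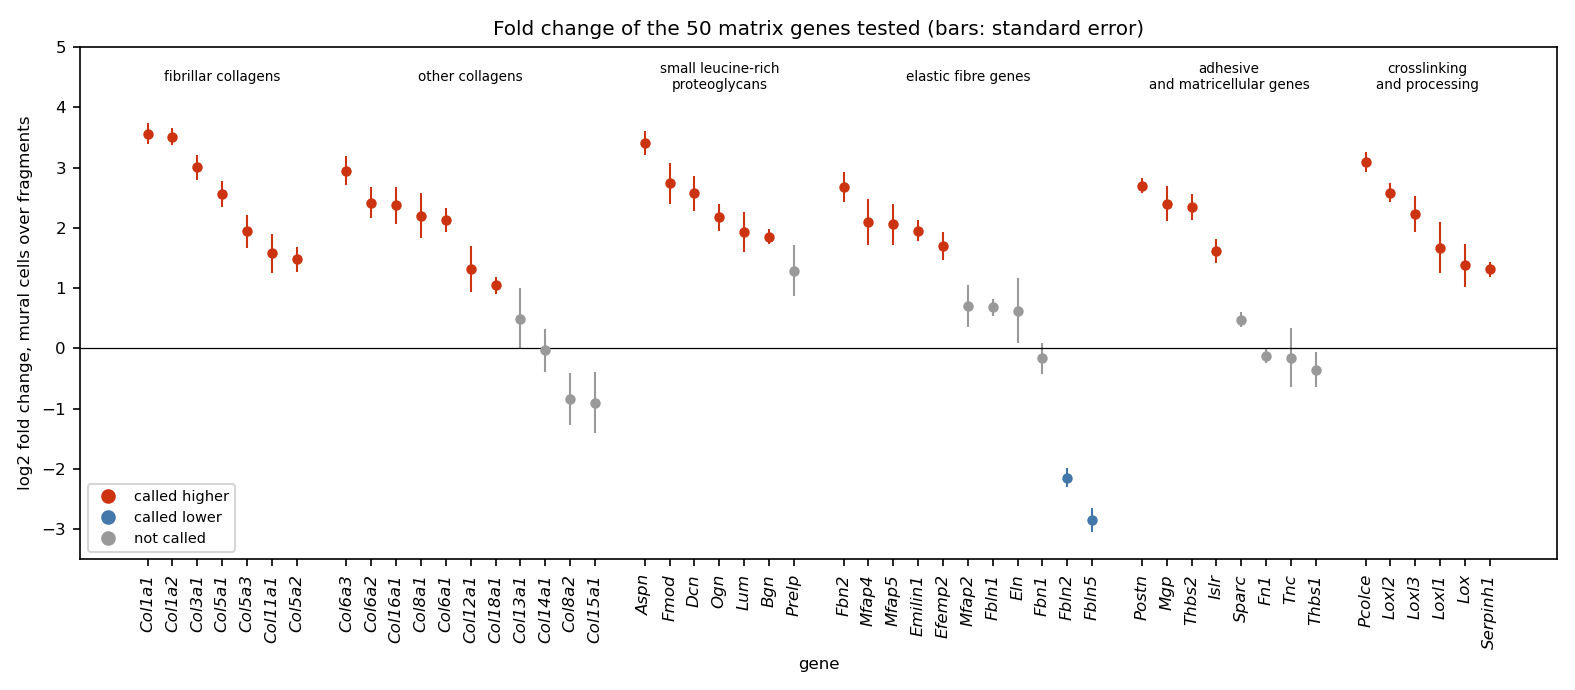
Log2 fold change (mural cells over fragments, log2(FPKM + 1) scale) of the 50 matrix genes tested, by class, with bars of 1 standard error. The 35 genes called higher lie between 1.05 (*Col18a1*) and 3.56 (*Col1a1*), and *Fbln2* and *Fbln5* lie at -2.15 and -2.85.

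Small leucine-rich proteoglycans were likewise higher in mural cells. All 7 tested genes lay above the fragments in every library, where 16.5% of all genes tested did. *Omd*, which was not tested, did so on few sequenced fragments. Of the 7 tested 6 were called (background 6.43%), and the median ratio was 6.17. *Aspn* (asporin, a collagen-binding member of the family) was at 52.8, 73.9 and 51.5 FPKM in mural cells and at 5.10, 5.06 and 3.80 FPKM in fragments. Its ratio of 12.8 (log2 fold change 3.41, SE 0.20, limma adjusted p = 9.9e-05) was close to those of the type I collagen chains. *Dcn* (decorin), which binds fibrils of type I collagen, was at 29.0, 20.1 and 38.7 FPKM in mural cells and at 2.98, 4.12 and 4.88 FPKM in fragments (ratio 7.33, adjusted p = 8.9e-04). *Fmod* (fibromodulin), a further regulator of fibril assembly, was at 34.2, 54.3 and 46.9 FPKM in mural cells and at 10.1, 5.02 and 3.68 FPKM in fragments, a ratio of 7.20.

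*Bgn* (biglycan, chrX:70728941-70741272) was the most abundant proteoglycan of the family in both groups and varied little between libraries. It was at 337, 360.1 and 338 FPKM in mural cells and at 110.2, 85.6 and 89.9 FPKM in fragments, or 345 ± 13.0 against 95.2 ± 13.1 (SD, n = 3), a ratio of 3.62 (log2 fold change 1.85, SE 0.13, limma adjusted p = 1.4e-04). *Ogn* (osteoglycin) was at 14.9, 20.7 and 14.6 FPKM in mural cells and at 2.90, 3.23 and 2.57 FPKM in fragments, a ratio of 5.78. *Lum* (lumican) was at 5.42, 7.16 and 10.8 FPKM in mural cells and at 0.816, 1.26 and 1.72 FPKM in fragments (ratio 6.17, adjusted p = 0.0054). Since depth differed between the libraries, these *Lum* values correspond to approximately 18, 10 and 16 sequenced fragments in mural cells and 7, 10 and 15 in the microvascular libraries. *Prelp* was above the fragments in every library without being called (ratio 2.65, adjusted p = 0.066), and it was called when fragment replicate 1 was left out (ratio 4.14, adjusted p = 0.036). *Omd* was not tested, at 1.67, 0.990 and 3.75 FPKM in mural cells and 0.805, 0.522 and 0.475 FPKM in fragments, values that rest on 1 to 5 sequenced fragments per library.

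Elastic fibre genes were called in both directions. Of the 12 genes 11 were tested, with 5 called higher (45.5%, background 6.43%), 2 lower (18.2%, background 10.1%) and 4 not called. The share of lower genes is close to the background, so the count of 2 is no result about this class. The median ratio was 1.79. *Fbn2* (fibrillin 2, a microfibril protein of developing tissue) was at 13.4, 20.1 and 15.8 FPKM in mural cells and at 1.49, 1.59 and 2.01 FPKM in fragments (ratio 9.69, log2 fold change 2.68, SE 0.25, limma adjusted p = 4.2e-04). *Mfap4*, which binds collagen and microfibrils, was at 16.0, 25.0 and 15.0 FPKM in mural cells and at 2.01, 2.93 and 6.52 FPKM in fragments (ratio 4.89, adjusted p = 0.0075), and overlaps *Mapk7* on the opposite strand. *Efemp2* (fibulin 4), needed for elastic fibre assembly, was at 66.6, 54.6 and 70.4 FPKM in mural cells and at 25.6, 19.3 and 13.4 FPKM in fragments, a ratio of 3.28. *Emilin1*, a glycoprotein of the elastin and microfibril interface, had a ratio of 4.02. The microfibril glycoprotein gene *Mfap5* was at 2.09, 3.44 and 5.23 FPKM in mural cells and at 0, 0.180 and 0 FPKM in fragments (log2 fold change 2.06, SE 0.34, adjusted p = 0.0050), and no ratio is given against a group with libraries at 0. *Mfap5* counts among the 5 called higher, but it passed the filter through the mural cell libraries only. A difference was thus built into its selection.

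The 2 genes called lower were both fibulins, while *Efemp2*, a further fibulin, was called higher. *Fbln5* (fibulin 5, chr12:102984775-103057265, NCBIM37), which tethers elastin to microfibrils and to integrins, was at 3.80, 4.77 and 4.06 FPKM in mural cells and at 37.8, 43.0 and 29.7 FPKM in fragments. These are approximately 38, 20 and 18 sequenced fragments in mural cells and 971, 1022 and 777 in the microvascular libraries. The gene was 8.74-fold higher in the vessel fragments (log2 fold change -2.85, SE 0.20, limma adjusted p = 1.6e-04). *Fbln2* (fibulin 2, chr6:91162449-91222534), which binds fibronectin and basement membrane proteins, was at 15.3, 17.0 and 17.4 FPKM in mural cells and at 85.1, 84.8 and 62.6 FPKM in fragments, and was 4.68-fold higher in the latter (log2 fold change -2.15, SE 0.16, adjusted p = 1.9e-04). Both kept this call under every alternative run. *Fbln1*, like *Efemp2*, lay above the fragments, at 36.6 to 40.2 FPKM in mural cells and 20.3 to 26.7 FPKM in fragments (ratio 1.62, adjusted p = 0.015), which is past the p threshold but under the ratio of 2. Mural cells thus held *Fbln5* at 11.4% and *Fbln2* at 21.4% of the fragment level. For comparison, 12 endothelial markers had a median of 68.5% with the lowest, *Ly6c1*, at 35.3%, and 6 microglia markers had a median of 8.59%, with summed levels of 91.1 to 142 FPKM in mural cells and 1219.8 to 1379 FPKM in fragments. Their part in the fibulin levels was not tested.

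*Eln*, the elastin gene (chr5:135179651-135223111, NCBIM37), had the highest level of this class and the widest spread. It was at 70.0, 256 and 308 FPKM in mural cell libraries 1, 2 and 3 and at 115, 157 and 82.8 FPKM in fragments, so that mural replicate 1 lay below every fragment library and the other two above all of them. With the mean at 211 ± 125 against 118 ± 37.0 FPKM (SD, n = 3) it was not called (ratio 1.79, log2 fold change 0.63, SE 0.54, limma adjusted p = 0.46). When mural replicate 1 was left out the ratio was 2.39 with an adjusted p of 0.020. *Fbn1* (ratio 0.913) and *Mfap2* (1.75) were not called and overlapped between the groups, and *Efemp1*, at 0.742 to 2.71 FPKM in mural cells and 0.468 to 0.786 FPKM in fragments, was not tested.

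Among the 8 adhesive and matricellular genes 4 were called higher (50%, background 6.43%) and 4 were not called, with a median ratio of 2.45. *Postn* (periostin, chr3:54165031-54194961, NCBIM37), a matricellular protein that promotes collagen crosslinking, was at 123, 108 and 97.4 FPKM in mural cells and at 15.3, 17.0 and 15.5 FPKM in fragments (ratio 6.88, log2 fold change 2.70, SE 0.13, limma adjusted p = 8.1e-05). *Thbs2* (thrombospondin 2) was at 31.6, 30.1 and 21.9 FPKM in mural cells and at 5.44, 4.46 and 4.06 FPKM in fragments, a ratio of 5.99. *Mgp* (matrix Gla protein), which inhibits calcification of vessel walls, was at 158, 313 and 243 FPKM in mural cells and at 49.7, 50.3 and 30.6 FPKM in fragments (ratio 5.46, adjusted p = 0.0013). The short *Mgp* transcript makes these high levels rest on approximately 76 to 110 sequenced fragments in mural cells and 57 to 92 in the microvascular libraries. *Islr*, a surface protein of mesenchymal cells, was at 15.1, 19.7 and 18.6 FPKM in mural cells and at 5.05, 4.75 and 5.49 FPKM in fragments, a ratio of 3.50.

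The most abundant genes of this class differed little. *Sparc*, a collagen-binding glycoprotein, had the highest level of all 53 genes in both groups, at 742, 862 and 785 FPKM in mural cells and 597, 582 and 533 FPKM in fragments. The groups did not overlap, but the ratio was 1.40 (log2 fold change 0.48, SE 0.12, limma adjusted p = 0.029). *Fn1* (fibronectin), which many cell types including endothelium make, was at 376, 333 and 388 FPKM in mural cells and 419.8, 391 and 381 FPKM in fragments (ratio 0.921, adjusted p = 0.50), with overlap. *Thbs1* had a ratio of 0.755 (adjusted p = 0.43) and *Tnc* a ratio of 1.11 (adjusted p = 0.86).

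All 6 tested genes for crosslinking, procollagen processing and folding were called higher (background 6.43%), with a median ratio of 4.87. For all 6 every mural cell library lay above every fragment library, as for 16.5% of all genes tested. *Pcolce* (chr5:138046331-138055012, NCBIM37), which enhances removal of the procollagen C-propeptide, was at 143, 156 and 128 FPKM in mural cells and at 19.5, 15.0 and 13.4 FPKM in fragments (ratio 8.92, log2 fold change 3.09, SE 0.16, limma adjusted p = 8.5e-05). *Loxl2*, a lysyl oxidase family enzyme, was at 75.4, 102 and 79.7 FPKM in mural cells and at 14.7, 13.2 and 12.2 FPKM in fragments, a ratio of 6.42. *Loxl3* was at 64.4, 55.6 and 31.8 FPKM in mural cells and at 6.95, 10.7 and 11.6 FPKM in fragments, a ratio of 5.20, and overlaps *Htra2* on the opposite strand. *Serpinh1*, the collagen chaperone HSP47, was the most abundant gene of the class, at 326, 365 and 351 FPKM in mural cells and 156, 144 and 121 FPKM in fragments (ratio 2.48, log2 fold change 1.31, SE 0.13, adjusted p = 5.2e-04).

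*Lox* and *Loxl1*, the enzymes of the family most closely tied to elastin, were lower in level and less certain. *Lox* was at 10.4, 17.6 and 19.6 FPKM in mural cells and at 5.76, 7.90 and 3.12 FPKM in fragments (ratio 2.84, limma adjusted p = 0.031). *Loxl1* was at 4.49, 11.8 and 15.5 FPKM in mural cells and at 3.03, 1.88 and 2.07 FPKM in fragments (ratio 4.55, adjusted p = 0.030). Each lost its call when 1 library was left out in most cases, with adjusted p of 0.072 to 0.094 for *Lox* without mural replicate 2 or 3 or fragment replicate 1 or 3, and of 0.066 to 0.10 for *Loxl1* without any library other than mural replicate 1. *Pcolce2* was listed at 0 in mural replicates 1 and 3 and in fragment replicate 3, and stood at no more than 1.64 FPKM elsewhere.

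Summed over the 53 genes, the matrix made up 0.956, 1.17 and 1.12% of the protein-coding FPKM in mural cells and 0.533, 0.529 and 0.465% in fragments. A few genes carried most of it, since the 6 highest held 52.8 to 56.8% of the matrix sum in mural cells and 71.9 to 73.1% in fragments. In mural cells the order of mean levels began with *Sparc* (797 FPKM), *Fn1* (366), *Serpinh1* (347), *Bgn* (345), *Mgp* (238), *Col1a2* (221), *Col18a1* (219.7), *Col3a1* (213) and *Eln* (211). *Sparc* stood apart from the next, the ranges of *Fn1*, *Serpinh1* and *Bgn* overlapped as neighbours, and so did those from *Mgp* down to *Eln*. In fragments the order was *Sparc*, *Fn1*, *Serpinh1*, *Eln*, *Col18a1* and *Bgn*, and *Col1a2* and *Col1a1* came at ranks 17 and 24. The levels are those of the sorted samples, which also held endothelial RNA. The summed level of 12 endothelial markers was 2197, 1854 and 1693 FPKM in mural cell libraries 1, 2 and 3. In fragment libraries 1, 2 and 3 it was 2700, 2716.5 and 2323 FPKM. The part of endothelial RNA in the matrix gene levels was not tested.

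The enrichment can be set beside that of the mural cell markers, which were tested in the same comparison. All 10 mural markers were called higher (background 6.43%), with ratios of 6.47 (*Cspg4*) to 10.9 (*Kcnj8*). In mural cells *Pdgfrb* was at 401 to 474 FPKM and *Cspg4* at 235 to 285 FPKM. The promoters of these genes drive the reporters used for the sort, so their difference was built into the sampling. Of the 34 matrix genes called higher other than *Mfap5*, 3 had ratios above the range of the mural markers (*Col1a1*, *Aspn* and *Col1a2*), 10 lay within it and 21 below, with a median of 5.88. Among genes past the p threshold *Col18a1* (2.09) lay just inside the ratio threshold and *Fbln1* (1.62) just outside, and by adjusted p *Col12a1* (0.045) was the last inside and *Prelp* (0.066) the first outside with a ratio above 2.

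**Figure D3:**
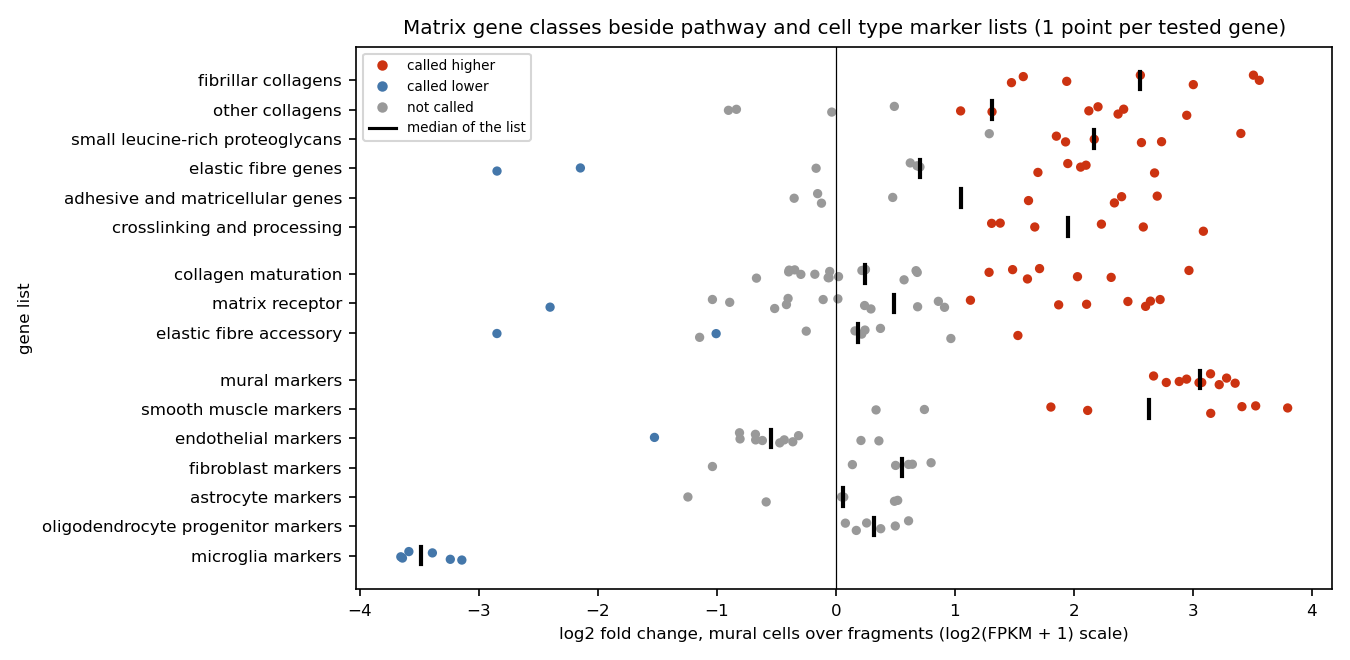
Log2 fold change (mural cells over fragments, log2(FPKM + 1) scale) of each tested gene in the 6 matrix classes, 3 lists of matrix pathway genes and 7 lists of cell type markers, with a vertical line at each median. The 7 fibrillar collagens and the 10 mural markers all lie to the right of 0 as called genes, the 6 fibroblast markers that were tested are all uncalled, and the 6 microglia markers lie to the left. Among all genes tested 6.43% were called higher and 10.1% lower.

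Genes that mark brain and leptomeningeal fibroblasts but are not matrix genes of the list were mostly low. Of 10 such markers 6 were tested and none was called, where the background of 6.43% would give few calls among 6 genes. Of these 6, 5 had a positive log2 fold change, and the median level in mural cells was 150% of that in fragments. *Pdgfra* also stands on the list of oligodendrocyte progenitor markers used below, so it does not separate the 2 cell types. *Pdgfra* was at 11.9, 12.9 and 13.2 FPKM in mural cells and at 7.39, 8.49 and 7.92 FPKM in fragments (ratio 1.59, limma adjusted p = 0.048). *Dpt* (dermatopontin) was listed at 0 in 5 of the 6 libraries and at 0.393 FPKM in mural replicate 1. *Apod*, which glia also express, made up most of the summed level of the list, 162 to 218 FPKM in mural cells and 113 to 158 FPKM in fragments. The other 7 markers stayed under 10 FPKM in every library, *Crabp2* was listed at 0 in mural replicates 2 and 3, *Slc22a6* in mural replicate 2 and *Scara5* in mural replicate 1, and *Slc47a1*, at 3.33, 0.678 and 1.28 FPKM against 0, 0.119 and 0.336 FPKM, lay above the fragments in every mural cell library but was too low to be tested. A difference between these markers and the matrix genes was not tested. The part of fibroblasts in the matrix gene levels was not tested. The label of fibroblast genes is used here for the list and not for the sorted cells.

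The mural cell libraries differed among themselves in part of the matrix genes. In the 46 genes with a mean of at least 5 FPKM in mural cells the median ratio of the highest to the lowest library was 1.50, and it was above 2 in 9 genes, which are named here after their values were seen. *Eln*, *Col15a1*, *Loxl1*, *Col8a1* and *Mfap2* were lowest in mural replicate 1, *Tnc*, *Col14a1* and *Col12a1* in mural replicate 2, and *Loxl3* in mural replicate 3. *Col8a1* was at 15.6, 38.9 and 40.3 FPKM, and *Col15a1*, a collagen near *Col18a1* in structure, was at 7.66, 38.5 and 18.8 FPKM. In fragments *Col15a1* was at 38.7, 26.2 and 40.0 FPKM, and without mural replicate 2 it was called lower (ratio 0.379, limma adjusted p = 0.040). *Col13a1*, a transmembrane collagen of lower level, was at 0.761, 6.02 and 3.71 FPKM, and without mural replicate 1 it was called higher (ratio 2.76, adjusted p = 0.050).

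Markers of other cells also differed between these libraries. Smooth muscle markers were lowest in mural replicate 1, with *Acta2* (smooth muscle actin) at 381, 838 and 959 FPKM and *Myh11* (smooth muscle myosin) at 78.7, 161 and 184 FPKM. Of the 8 smooth muscle markers 6 were called higher (background 6.43%). The summed level of all 8 was 710.1, 1487 and 1687 FPKM in mural cells and 157 to 221 FPKM in fragments. *Tnc*, which astroglia are known to make, was at 11.4, 10.2 and 43.1 FPKM in mural cells and at 20.1, 20.7 and 17.4 FPKM in fragments. The summed level of 6 astrocyte markers was 231, 182 and 678 FPKM in mural cells and 268 to 378 FPKM in fragments, with *Slc1a2* at 50.6, 39.3 and 236 FPKM. That of 6 oligodendrocyte progenitor markers was 56.0, 49.5 and 157 FPKM in mural cells and 44.4 to 63.5 FPKM in fragments. No gene of either list was called, where backgrounds of 6.43% higher and 10.1% lower would give few calls. The 6 oligodendrocyte progenitor markers include *Pdgfra*, which was also counted among the fibroblast markers. Estimated depth differed as well, at approximately 2.37, 1.04 and 1.05 M fragments in mural cell libraries 1, 2 and 3. The part of these cells, or of depth, in the spread of matrix genes was not tested. Of the type I collagen chains *Col1a1* lay between 107 and 115 FPKM in the mural cell libraries, and *Col1a2* was lowest in mural replicate 1, at 184 FPKM against 256 and 222 FPKM.

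**Figure D4:**
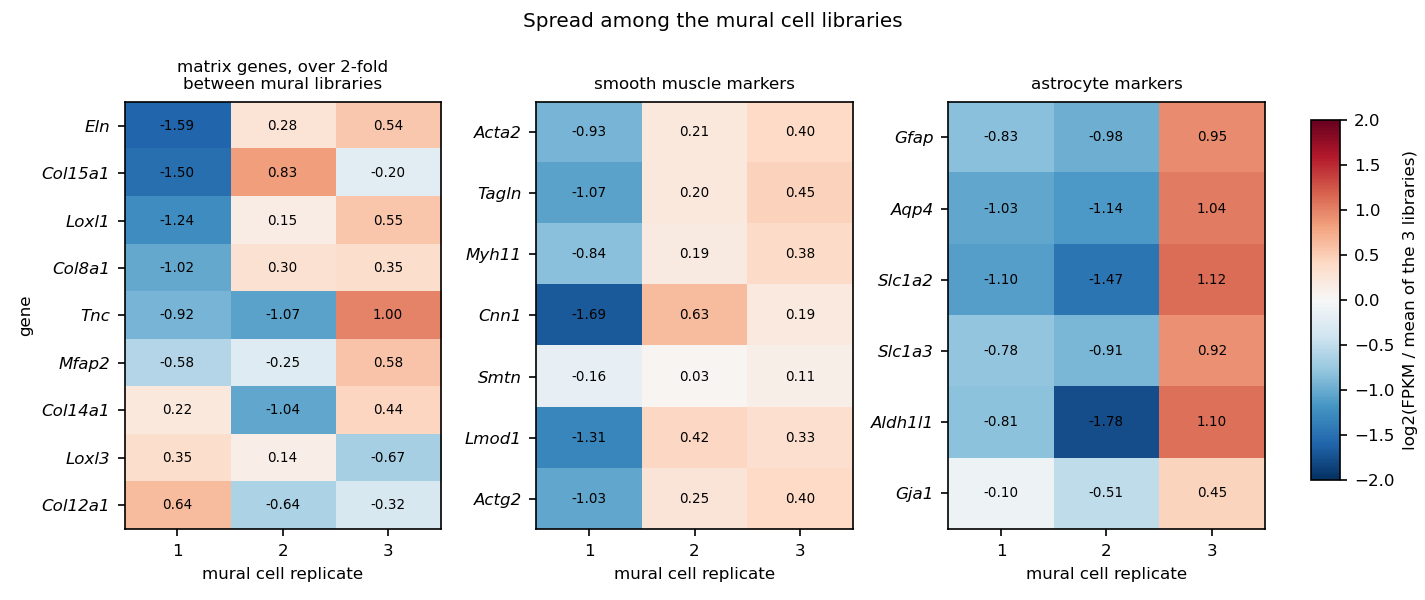
Log2 of FPKM over the mean of the 3 mural cell libraries, for the 9 matrix genes that differ over 2-fold between these libraries, for 7 of the 8 smooth muscle markers (those with a mean of at least 5 FPKM) and for 6 astrocyte markers. Blue is below and red above the mean. *Eln*, *Col15a1*, *Loxl1*, *Col8a1* and *Mfap2* are lowest in replicate 1, *Tnc*, *Col14a1* and *Col12a1* in replicate 2, and *Loxl3* in replicate 3. The smooth muscle markers shown are lowest in replicate 1. The astrocyte markers are lowest in replicate 2 and highest in replicate 3. The 9 genes were picked after their values were seen, and a shared source with these markers was not tested.

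Ratios between partner genes were formed within each library, where FPKM corrects for length. For *Col1a2* over *Col1a1* the values in mural cells were 1.71, 2.34 and 1.94, and in the fragments 2.51, 2.55 and 1.59, with overlap (exact permutation test, two-sided p = 0.60). *Col6a3* over *Col6a1* gave 0.989, 1.74 and 1.58 for mural cells against 0.679, 0.725 and 0.769 for fragments. *Col5a2* over *Col5a1* gave 2.68 to 3.90 for mural cells against 5.90 to 9.63 for fragments. *Fbln5* over *Eln* gave 0.0543, 0.0187 and 0.0132 for mural cells against 0.328, 0.274 and 0.359 for fragments. The groups did not overlap in these last 3 ratios, nor in that of *Bgn* to *Dcn*, with 8.73 to 18.0 against 18.4 to 37.0. Their exact permutation p of 0.10 (two-sided) is the smallest that 3 against 3 allows, and adjusted over the 7 ratios computed it was 0.175.

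Several of the genes are neighbours in the genome (NCBIM37). *Aspn* (chr13:49639812-49662926), *Omd* (chr13:49678135-49687978) and *Ogn* (chr13:49703440-49719869) stand in a row on the plus strand with gaps of 15.2 and 15.5 kb, all overlapped by *Cenpp* on the other strand, and had mean levels of 59.4, 2.13 and 16.8 FPKM in mural cells. *Dcn* (chr10:96942245-96980777) and *Lum* (chr10:97028135-97035337) lie 47.4 kb apart on the same strand and were both called higher, at 29.3 and 7.80 FPKM. *Col3a1* (chr1:45368383-45406551) and *Col5a2* (chr1:45431166-45560127) lie on opposite strands 24.6 kb apart, with ratios of 8.49 and 2.79. *Col6a2* and *Col6a1* lie 85.2 kb apart with ratios of 6.46 and 5.19. *Prelp* and *Fmod* lie 116 kb apart, and of these only *Fmod* was called.

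Other genes of the collagen pathway moved in smaller numbers. Of 24 matched genes for collagen maturation 23 were tested, 7 were called higher and none lower, with a median ratio of 1.20 (30.4% of those tested, against 6.43% of all genes). Among the proteases that trim procollagen *Adamts2*, *Adamts14* and *Bmp1* were called, *Adamts3* (ratio 2.58, limma adjusted p = 0.12) and *Tll1* (0.545, 0.28) were not, and *Tll2* was not tested. *Adamts14* was at 12.2, 21.8 and 16.5 FPKM in mural cells and at 1.58, 1.19 and 0.948 FPKM in fragments (ratio 13.6, limma adjusted p = 5.0e-04). *Adamts2*, like *Adamts14* a procollagen N-proteinase, was at 4.30, 7.61 and 8.26 FPKM in mural cells and at 0.529, 0.570 and 0.428 FPKM in fragments (ratio 13.2, adjusted p = 0.0019), and it passed the filter through the mural cell libraries only, so that a difference was built into its selection. *Bmp1*, the C-proteinase that *Pcolce* enhances, had a ratio of 3.33. *Fkbp10*, a collagen chaperone, was at 149, 181 and 173 FPKM in mural cells and at 72.5, 52.8 and 81.7 FPKM in fragments, the smallest ratio called at 2.43. *Lepre1*, a prolyl 3-hydroxylase, was at 38.5, 55.3 and 27.8 FPKM in mural cells and at 16.1, 12.7 and 11.5 FPKM in fragments (ratio 3.02). *Leprel2* (4.42) and *Plod2* (3.31), further hydroxylases of collagen, were also called. The lysyl hydroxylase gene *Plod1* was not called, at 79.4 to 82.9 FPKM in mural cells and 85.0 to 85.1 FPKM in fragments (adjusted p = 0.68).

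Of 20 matrix receptor genes 7 (35%) were called higher and 1 (5%) lower, against 6.43% and 10.1% of all genes. The median ratio was 1.45. Those called higher included *Itga1*, *Itga10* and *Itga11*, all alpha chains of collagen-binding integrins, with ratios of 4.37, 8.35 and 9.87. *Itga11* was at 14.5, 14.4 and 11.2 FPKM in mural cells and at 1.60, 1.14 and 1.32 FPKM in fragments (limma adjusted p = 4.2e-04). *Itga8*, whose integrin binds the RGD motif of matrix proteins, was at 22.4, 58.0 and 37.9 FPKM in mural cells and at 4.08, 5.30 and 4.76 FPKM in fragments (ratio 8.35, adjusted p = 0.0013). The collagen uptake receptor *Mrc2* had a ratio of 6.59 and the collagen receptor kinase *Ddr2* a ratio of 4.04. *Itgav* was at 106, 93.4 and 95.9 FPKM in mural cells and at 54.5, 38.2 and 41.5 FPKM in fragments, a ratio of 2.2. *Itga2*, the remaining collagen-binding alpha chain of the list, was not called, at 1.90 to 3.37 FPKM in mural cells and 4.24 to 8.09 FPKM in fragments (adjusted p = 0.083). *Cd36*, a thrombospondin and lipid receptor, was called lower, at 0.675, 0 and 1.14 FPKM in mural cells and 6.09, 6.47 and 8.99 FPKM in fragments.

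Of 14 accessory genes of elastic fibres 10 were tested, 1 (10%) was called higher and 2 (20%) lower, with a median ratio of 1.15. These shares are close to the 6.43% and 10.1% of all genes, so the counts are no result about this list, and its called genes are given as values. *Ltbp3*, which holds latent TGF-beta, was at 22.1, 25.0 and 27.7 FPKM in mural cells and at 10.6, 6.83 and 6.89 FPKM in fragments (ratio 3.08, limma adjusted p = 0.0025). *Adamtsl4*, a fibrillin-binding protein, was at 2.35, 1.84 and 2.08 FPKM in mural cells and at 37.8, 11.8 and 21.2 FPKM in fragments, or 11.3-fold higher in the fragments (adjusted p = 0.0024). *Ltbp4*, which takes part with *Fbln5* in laying down elastin, was at 37.1, 44.5 and 38.6 FPKM in mural cells and at 82.3, 106 and 61.7 FPKM in fragments, and was 2.08-fold higher in fragments (adjusted p = 0.011).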

How the data were processed

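Mouse brain mural cells (FACS, 3 samples) and microvascular fragments (3 samples) were sequenced. The authors mapped reads to NCBIM37 with TopHat2 2.0.4, took out duplicates with Picard 1.92, used Cufflinks 2.2.1 for FPKM, and deposited FPKM per Ensembl gene for each library. The libraries came from a stranded total RNA kit, and whether strand was used in counting is not given in the sources used here. Duplicate removal can compress the values of highly expressed genes. Labels give 3 samples a group, and the study's methods name 3 mice.

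Of 9 identifiers listed more than once with equal values 1 line was kept. GENCODE for NCBIM37 supplied symbols and coordinates, and 24 of 25 collagen maturation genes and all other listed genes were found there. The values log2(FPKM + 1) were fitted with limma 3.58.1 (R 4.3.3) and an intensity trend over 14801 genes at an FPKM of 1 or more in 3 or more samples, and p-values were adjusted by the Benjamini-Hochberg method. The fit was also run on simulated data with planted changes. There both groups had the same spread, while the real mural cell libraries varied more than the fragments. The simulation therefore does not measure the error rate of the calls given here. Fold changes on this scale understate those of low genes, so ratios of mean FPKM are given beside them. Ratios within libraries were compared with an exact permutation test. Other steps used Python 3.11.15 with pandas 2.3.3, NumPy 2.4.6 and SciPy 1.17.1.

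Per class, all values are given for up to 3 called genes with the largest and up to 3 with the smallest ratio and for the most abundant gene, and per pathway list for the 2 largest and 2 smallest called. The members and lists were chosen with earlier results of these data known. Alternatives were median-ratio scaling, a pseudocount of 0.1, quantile normalization, a filter at FPKM 5 or none, the replicate number as a block, no intensity trend, leaving out genes at 0 in a whole group and leaving out each sample.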

Additional observations from a re-analysis of the deposited data

How the results depend on the processing

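Of the 35 matrix genes called higher, 30 kept the call in every alternative in which they were tested, and so did both fibulins called lower. *Mfap5* was not tested at a filter of FPKM 5 or when a mural cell library was left out. The exceptions were *Col12a1*, *Lox*, *Loxl1*, *Col18a1* and *Col11a1*, and the cause was not tested. *Col12a1* lost the call with a pseudocount of 0.1 (adjusted p = 0.054). Without a filter *Col12a1*, *Lox* and *Loxl1* lost it, which left 32 genes. Quantile normalization took *Col18a1* to a ratio of 1.98 and added *Prelp*. Leaving out 1 sample gave 31 to 35 matrix genes higher and 2 to 3 lower, and over all genes 691 to 949 higher and 607 to 1733 lower, with 654, 702 and 607 lower without fragment replicate 1, 2 and 3. Leaving out mural replicate 1, 2 or 3 gave 1733, 1416 and 1540. Without a fragment library, genes at 1 FPKM or more only in fragments cannot pass the filter, and the part of this in the drop was not tested. At a filter of FPKM 5, where fewer genes were tested, 948 of all genes were lower. The median log2 fold change of the tested matrix genes, 1.89, was 1.70 without a filter and 1.70 to 1.87 when a sample was left out. Among genes not called, the log2 fold change turned to positive for *Col14a1* under quantile normalization (0.19) and without mural replicate 2 (0.33) or fragment replicate 1 (0.0041), for *Fbn1* without mural replicate 1 (0.066), and for *Tnc* without mural replicate 1 (0.13) or 2 (0.20). When a sample was left out these ranged from -0.26 to 0.33, from -0.39 to 0.066 and from -0.79 to 0.20.

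With the replicate number as a block, 33 matrix genes were higher and 2 lower (900 and 1344 of all genes), and *Col12a1* and *Loxl1* lost the call. The labels do not tie the numbers to animals. Deviations of same-numbered samples correlated at 0.082, 0.020 and 0.045 across genes, against -0.061 to 0.010 for other pairs. Each sample correlated best with its own number, but all these values are small. The deviations were taken from the mean of each group, so the pairs are not independent and do not settle whether numbers mark animals. Genes near 1 FPKM rest on few sequenced fragments in mural cells.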
